A study of Homo sapiens with 80 samples.

Results

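The 10 genes described here are the transcription factors and adhesion genes through which an epithelial to mesenchymal transition (EMT) is usually read. They are CDH1 and EPCAM on the epithelial side, CDH2, VIM and FN1 on the mesenchymal side, and the transcription factors SNAI1, SNAI2, ZEB1, ZEB2 and TWIST1. The genes were given as a list of names with no threshold on a measured value, although earlier results of these data were known when the list was made. They were followed by purity class, day and cell line to describe the order and speed of the change. They are 10 of the 43388 genes in the expression tables, and all 10 were measured in both experiments of the series.

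Human pluripotent stem cells were turned into cardiomyocytes with CHIR99021, a GSK3 inhibitor that activates Wnt signalling, followed by the Wnt secretion inhibitor IWP2. The share of cells with cardiac troponin T on day 16 decided afterwards whether a differentiation counted as high or low purity, and RNA collected along the way was then sequenced. The percentages behind the classes were not analysed here. In the experiment called multi-omic, WTC11 cells, an induced pluripotent stem cell (hiPSC) line, gave 56 poly(A) RNA libraries from separate wells.

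In the multi-omic experiment, the 25 high purity libraries came from a differentiation at passage 52 and the 31 low purity libraries from a differentiation at passage 69. Each class had 4 wells on days 0, 2, 4 and 6. For days 8, 10, 13 and 16 the numbers of wells were 3, 1, 2 and 3 in high purity and 4, 4, 4 and 3 in low purity. All wells of a class belong to 1 differentiation, so purity, passage and differentiation cannot be told apart, and p-values measure only the spread between wells. All these wells received CHIR99021 in insulin-free medium on day 0, IWP2 on day 2, fresh insulin-free medium on day 4 and insulin from day 6.

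The second experiment, RNA-only, had 24 total RNA libraries from 3 lines. H9, a human embryonic stem cell line, was differentiated at passage 55 (low purity) and 58 (high purity). IMR90-4, another hiPSC line, was used at passage 55 (high) and 75 (low), and WTC11 at passage 69 (low) and 81 (high). There is 1 library for each differentiation and stage, so the lines are the replicates of a class. The stages were day 0, day 2 (WTC11) or 3, day 4 or 5, and day 6 or 7. H9 and IMR90-4 received IWP2 on day 3, in part conditioned medium, and WTC11 on day 2.

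Read totals over genes ran from 6579715 to 18143597 in the multi-omic libraries and from 17990882 to 40357968 in RNA-only. On day 0 and day 16 the marker sums went with the labels. The summed level of 9 pluripotency genes was 7060 to 7640 TPM (reads scaled for gene length and depth) in the 8 day 0 wells. The sum of 10 cardiomyocyte genes on day 16 was 12600 to 14700 TPM in high purity wells and 4560 to 6770 TPM in low purity wells. On day 4 the same sum ran the other way, at 196 to 276 TPM in high and 1820 to 2030 TPM in low purity wells. The deposited multi-omic count columns did not hold the reads of the TPM columns of the same name, as the processing account describes, so the multi-omic results rest on the TPM table. Which of the 2 tables carries the right column labels is not given in the sources used here. Under the TPM labels, the most correlated library was of the same class and day for 52 of 55 libraries. Under the count labels this held for 29 of 55. Such a check cannot see an exchange of whole groups. If it is the count table, the class or day of multi-omic values below would be others than stated.

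In an epithelium, cells are held to their neighbours by E-cadherin and by tight junctions. In EMT, factors of the SNAI, ZEB and TWIST families bind E-box motifs and repress E-cadherin and other junction genes, while N-cadherin, vimentin and fibronectin come up and cells gain motility. Gastrulation is the classic example: pluripotent epiblast cells go through the primitive streak and leave it as mesoderm, from which the heart forms. MicroRNAs of the miR-200 family repress ZEB1 and ZEB2, and ZEB1 and ZEB2 repress the miR-200 genes in turn.

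Upstream sequence is shown for CDH2, ZEB2 and ZEB1, because CDH2 and ZEB2 had the 2 largest rises of the 10 on the log2(TPM + 1) scale in the first 2 days of both multi-omic classes, and ZEB1 rose less in high purity. RefSeq windows (GRCh38.p14) were at hand for 5 of the 10 members. Each sequence is the 250 bases before an annotated start, 5′ to 3′ on the gene's strand, with any CACCTG or CAGGTG in capitals, the E-box that SNAI and ZEB factors bind. The ZEB1 window is at chr10:31318167-31318416 on the plus strand, the CDH2 window at chr18:28177131-28177380 on the minus strand and the ZEB2 window at chr2:144520120-144520369 on the minus strand.
ZEB1: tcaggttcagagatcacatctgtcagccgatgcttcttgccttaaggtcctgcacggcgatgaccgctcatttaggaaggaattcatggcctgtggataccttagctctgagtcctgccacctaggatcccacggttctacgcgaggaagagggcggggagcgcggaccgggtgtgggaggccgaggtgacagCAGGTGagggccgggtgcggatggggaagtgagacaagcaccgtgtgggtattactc
CDH2: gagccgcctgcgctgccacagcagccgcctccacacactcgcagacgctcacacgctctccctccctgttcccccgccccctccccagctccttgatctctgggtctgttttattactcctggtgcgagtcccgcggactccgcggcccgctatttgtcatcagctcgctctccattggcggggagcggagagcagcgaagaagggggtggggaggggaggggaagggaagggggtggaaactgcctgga
ZEB2: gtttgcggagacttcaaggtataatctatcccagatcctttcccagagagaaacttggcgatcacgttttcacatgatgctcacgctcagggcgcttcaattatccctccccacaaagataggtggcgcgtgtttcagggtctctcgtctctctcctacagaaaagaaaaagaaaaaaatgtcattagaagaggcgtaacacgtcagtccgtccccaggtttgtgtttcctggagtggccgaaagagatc
The ZEB1 window holds 1 match and the other two none. Over the 12 windows of these 5 members, 2 hold a match, both at ZEB1 starts. The same 6 letters, read on both strands, occur in 17.5% of the 35116 RefSeq windows of this length. A match describes the letters only.

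The miRNA sequences are given because a host transcript, MIR200CHG, was among the genes that differed between classes. Its gene (chr12:6963245-6964447) contains 2 members of the miR-200 family. Capitals mark the seed, bases 2 to 8.
hsa-miR-200c-3p: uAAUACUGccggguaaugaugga
hsa-miR-141-3p: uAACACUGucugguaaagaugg
Mature miRNAs are not captured by poly(A) libraries, and their levels were not analysed here.

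The positions of the members are those of RefSeq annotation on GRCh38. CDH1 lies at chr16:68737292-68835537, EPCAM at chr2:47369311-47387020, CDH2 at chr18:27932879-28177130, VIM at chr10:17228241-17237593 and FN1 at chr2:215360865-215436068. SNAI1 lies at chr20:49982980-49988886, SNAI2 at chr8:48917598-48921429, ZEB1 at chr10:31318417-31529804, ZEB2 at chr2:144384081-144520119 and TWIST1 at chr7:19113047-19117636. The tables give 1 value per gene, so isoforms were not separated. Antisense genes VIM-AS1, ZEB1-AS1 and ZEB2-AS1 overlap VIM, ZEB1 and ZEB2. Whether reads were counted by strand is not given in the sources used here, so reads of such pairs may not be separated.

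Differences between classes, and steps between days, were tested on all 25664 genes that passed a low level filter. The test was limma on log2(TPM + 1) after TMM scaling, which evens out library composition. A gene was called where the Benjamini-Hochberg adjusted p was under 0.05 and the log2 fold change at least 1. Fold changes on this scale understate the change of genes near or below 1 TPM. All 10 members passed the filter.

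On day 0 both classes had the same members high and the same members low. EPCAM, CDH1, VIM, CDH2 and FN1 were between 32.2 and 395 TPM on average, and the 5 transcription factors were between 0 and 3.23 TPM. Between classes on day 0, limma called 0 of the 10 (1.07% of all genes), with an unadjusted p under 0.05 for 2, VIM and ZEB1. On reads recovered from the TPM values, edgeR called 1, TWIST1, and DESeq2 called 0. Over days 2 to 16, 21 of 60 member comparisons were called, against 5.33%, 7.84%, 8.8%, 12.2%, 10.8% and 13.4% of all genes on days 2, 4, 6, 8, 13 and 16. The called members were CDH1 on 4 days, EPCAM on 4 days, SNAI2 on 5 days, TWIST1, SNAI1 and FN1 on 2 days each, and VIM and CDH2 on 1 day each. ZEB1 and ZEB2 were never called. Over all 70 comparisons, day 0 included, this is 21 against 8.49% over all genes. On TMM-scaled values, high and low purity wells were fully separated for 2, 8, 10, 8, 9, 8 and 8 of the 10 members on days 0, 2, 4, 6, 8, 13 and 16. On the TPM as deposited, which is the scale of the well values below, the day 8 and day 16 counts were 8 and 7. Such separation after TMM scaling was common among all genes, at 19.3%, 34.6%, 33.9%, 32%, 43%, 47% and 48.1%.

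**Figure D1:**
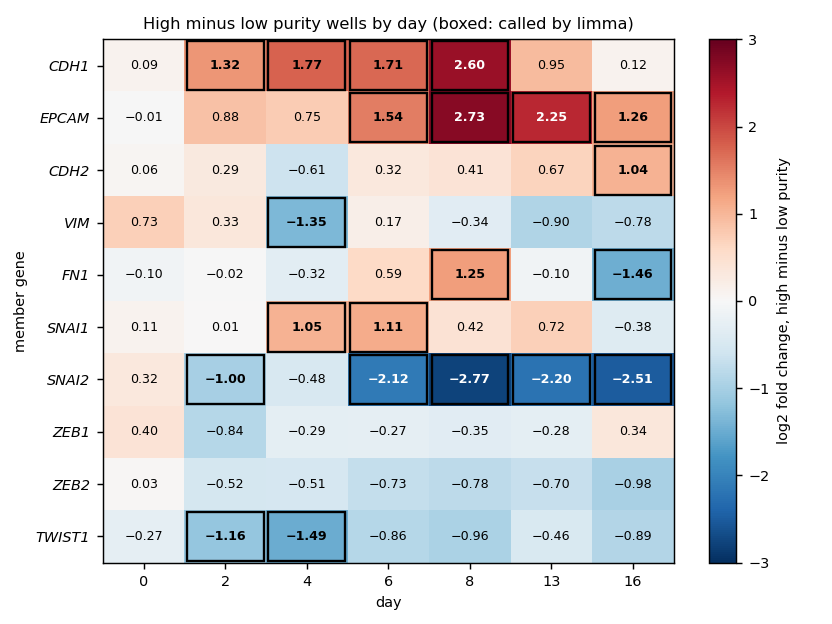
Difference between classes for each member and day in the multi-omic experiment: colour and number give the log2 difference in TMM-scaled TPM + 1, high purity minus low purity, rows are genes and columns days. Boxed cells passed both the adjusted p and the fold threshold; CDH1 and EPCAM are positive from day 2 to 8, and SNAI2 is negative on every day from 2 to 16.

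CDH1 encodes E-cadherin, the adherens junction protein whose loss defines the change. Its day 0 level was 173 ± 10.5 TPM in high purity (SD, n = 4 wells) and 155 ± 3.59 in low purity (SD, n = 4 wells). On day 2 the 4 high purity wells were at 336, 453.9, 419.5 and 327.8 TPM and the 4 low purity wells at 153.9, 162.7, 175.8 and 147.3 TPM. So the groups did not overlap, and the lowest high purity well stood above the highest low purity well. The log2 difference was 1.32 (SE 0.14, limma adjusted p = 1.98e-10). CDH1 had risen from day 0 to 2 in high purity (log2 change 1.10), while low purity was at 103% of its day 0 mean, and the 2 steps differed by 1.22 (SE 0.198, limma adjusted p = 8.6e-06).

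From day 2 to 4, CDH1 fell in both classes, by 2.00 in high and 2.45 in low purity on the log2 scale. High purity wells then held 98.77, 103.3, 127.6 and 84.96 TPM and low purity wells 23.46, 33.45, 32.79 and 29.19 TPM. This is 59.9% of the day 0 mean in high purity and 19.2% in low purity. The widest gap between classes came on day 8, when the 3 high purity wells were at 150.6, 125.1 and 92.9 TPM and the 4 low purity wells at 19.03, 23.83, 25.8 and 21.49 TPM. The log2 difference was 2.60 on that day (SE 0.151, limma adjusted p = 1.24e-18).

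The gap in CDH1 closed late. High purity fell between days 8 and 16 (log2 change -1.62), and low purity was at a log2 change of 0.87 over the same days, which did not pass the call. The steps differed by -2.48 (SE 0.222, limma adjusted p = 3.97e-12). On day 16 the high purity wells were at 23.36, 47.01 and 33.43 TPM and the low purity wells at 34.35, 34.71 and 38.08 TPM. The 2 groups then overlapped, and the difference was 0.12.

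EPCAM, an epithelial surface glycoprotein that pluripotent cells carry at high level, moved like CDH1 in high purity. It rose from 395 ± 8.24 TPM on day 0 to 954 ± 117 TPM on day 2 (SD, n = 4 wells each; log2 change 1.23) and fell to 387 TPM on day 4. In low purity it was at 381 TPM on day 0 and 542 TPM on day 2, a log2 change of 0.34 that did not pass the call. The day 2 difference between classes was 0.88, below the fold threshold.

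Classes were called apart in EPCAM from day 6 on. On day 8 the high purity wells were at 355.2, 275.5 and 254.8 TPM, and the low purity wells at 48.19, 66.84, 59.39 and 34.18 TPM. That is a log2 difference of 2.73 (SE 0.199, limma adjusted p = 1.73e-15), the largest positive difference of any member on any day. EPCAM fell from day 6 to 8 in low purity (log2 change -1.64), and the step differed from that of high purity by 1.19 (limma adjusted p = 0.00111). Without TMM scaling that difference of steps was 0.95 and was not called. High purity fell later, by 2.18 on the log2 scale from day 8 to 16, to 56.4 ± 15.6 TPM (SD, n = 3 wells), against 27.5 ± 9.90 TPM in low purity (SD, n = 3 wells). The day 16 difference of 1.26 was called, but was 0.93 and not called without low purity well 1, at 16.45 TPM.

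CDH2, N-cadherin, is the cadherin of mesoderm and heart muscle. It rose in both classes within the first 2 days, from 39.0 ± 2.42 to 967 ± 41.8 TPM in high purity and from 35.7 ± 1.83 to 826 ± 9.67 TPM in low purity (SD, n = 4 wells each). The log2 changes were 4.57 and 4.34. From day 2 to 4 it fell in high purity (log2 change -1.30), and in low purity it changed by -0.39, which did not pass the fold threshold. The groups did not overlap on day 4, when high purity wells were at 393.3 to 488.9 TPM and low purity wells at 615.9 to 689.3 TPM.

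By day 16 CDH2 stood at 727.8, 813.2 and 720.4 TPM in high purity and at 396.7, 448.7 and 438.1 TPM in low purity. This was the only day on which CDH2 was called between classes (log2 difference 1.04, SE 0.073, limma adjusted p = 3.61e-16). The value was 0.82 without TMM scaling and 0.98 without low purity well 1, and neither was called. Cardiomyocytes themselves carry N-cadherin, and the cardiomyocyte marker sum was 12600 to 14700 TPM in these high purity wells and 4560 to 6770 TPM in the low purity wells. The part of the marker sums in this difference was not tested. In bulk RNA, fewer cells of a type and less RNA per cell cannot be told apart, here and in every result below.

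The ratio of CDH2 to CDH1 in TPM puts the cadherin switch in 1 number per well. It was 0.226 ± 0.00885 on day 0 in high purity and 0.231 ± 0.00896 in low purity (SD, n = 4 wells each), so E-cadherin mRNA dominated. By day 2 it had passed 1 in every well, with 2.55 ± 0.301 in high and 5.19 ± 0.45 in low purity. On day 4 it was 4.16 ± 0.365 in high and 22.5 ± 4.48 in low purity (SD, n = 4 wells each). Low purity did not keep that ratio. Its means of days 6, 8, 10, 13 and 16 were 9.77, 22.7, 9.87, 8.48 and 12.0. High purity went through 3.61, 4.83, 5.07 and 6.86 on days 6, 8, 10 and 13, and was highest on day 16, at 23.3 ± 7.1 (SD, n = 3 wells).

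**Figure D2:**
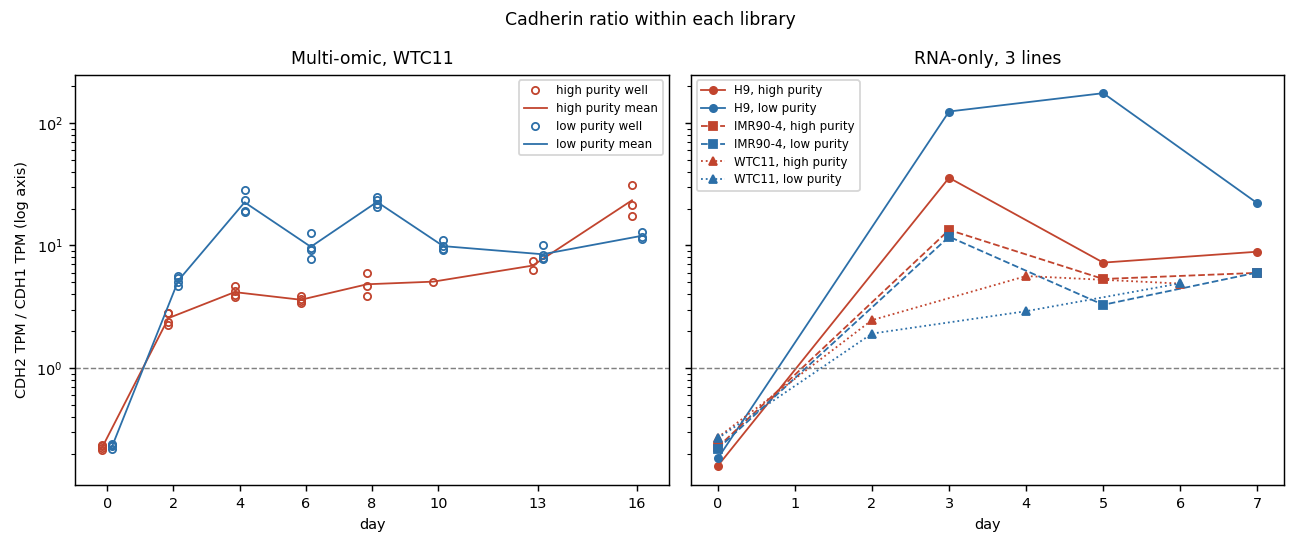
Ratio of CDH2 to CDH1 TPM on a log axis, by day: points are libraries, lines join means (multi-omic, left) or the libraries of a differentiation (RNA-only, right), and the dashed line marks a ratio of 1. In the multi-omic experiment low purity reaches 22.5 on day 4 when high purity is at 4.16; in RNA-only, H9 low purity stands highest.

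SNAI1 (Snail), the factor that leads EMT at the primitive streak, was a pulse of day 2 in both classes. The 4 high purity wells of day 2 were at 46.08, 45.26, 40.86 and 35.94 TPM and the 4 low purity wells at 47.96, 38.51, 42.2 and 46.29 TPM. These groups overlapped, with a log2 difference of 0.01. From a day 0 mean of 3.23 and 2.64 TPM, this was a log2 change of 3.40 in high and 3.5 in low purity. By day 4 it had fallen to 13.5 ± 3.00 TPM in high purity and to 6.08 ± 1.86 TPM in low purity (SD, n = 4 wells each). The fall was smaller in high purity, by a log2 difference of steps of 1.04 (SE 0.348, limma adjusted p = 0.0186).

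SNAI1 had few reads, from 5 to 353 in a well. The day 4 and day 6 differences of 1.05 and 1.11 were called, with adjusted p = 0.000555 and 0.000244 (limma). Both hung on single wells. The day 4 value was 0.92 without high purity well 1 and 0.86 without low purity well 1. The day 6 value was 0.98 without high purity well 2 and 0.89 without low purity well 1. None of these passed the call. The difference of steps from day 2 to 4 was also lost without 1 of 4 wells, at 0.98 (high day 2 well 4), 0.91 (high day 4 well 1), 1.00 (low day 2 well 1) and 0.85 (low day 4 well 1).

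SNAI2 (Slug), the second SNAI factor, which marks migrating mesoderm and neural crest, came later and stayed on in low purity. On day 2 the wells were at 26.45, 18.01, 11.05 and 22.68 TPM in high and 40.51, 41.42, 34.92 and 44.48 TPM in low purity. Every low purity well was above every high purity well. The log2 difference was -1.00 (SE 0.177, limma adjusted p = 9.72e-06), at the fold threshold itself. It was -0.78 without high purity well 3, between -0.98 and -0.97 without high purity well 2 or low purity well 2 or 4, and -0.99 without the low level filter or with edgeR on recovered reads, and none of these was called. The rise from day 0 was 2.92 in high and 4.24 in low purity, and the steps differed by -1.32 (SE 0.25, limma adjusted p = 9.94e-05).

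High purity had its SNAI2 peak on day 4, at 103 ± 5.92 TPM (SD, n = 4 wells). It then fell, by 1.47 on the log2 scale to day 6, while low purity reached 172 ± 35.9 TPM on day 6 (SD, n = 4 wells). The steps from day 4 to 6 differed by -1.64 (SE 0.25, limma adjusted p = 1.4e-06). On day 8 the high purity wells held 13.3, 16.82 and 21.07 TPM, and the low purity wells 162.8, 120.7, 128.8 and 156.5 TPM. The log2 difference was -2.77 (SE 0.191, limma adjusted p = 3.07e-16), the largest negative difference of any member. On day 16 it was -2.51, with 14.1 ± 0.919 TPM for high and 98.3 ± 13.9 TPM in low purity (SD, n = 3 wells each).

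SNAI2 is also expressed by fibroblasts and other stromal cells. The summed level of 9 fibroblast and stromal genes was 412 to 480 TPM in high and 4780 to 5780 TPM in low purity wells on day 8, and 505 to 614 against 9690 to 13200 TPM on day 16. On day 4 it was 195 to 279 against 1010 to 1030 TPM. Surface ectoderm and amnion genes (9 genes) summed to 128 to 151 against 654 to 777 TPM on day 4 and 227 to 354 against 2590 to 3330 TPM on day 16. The part of these markers in the SNAI2 difference, and in those of TWIST1, VIM and FN1, was not tested.

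ZEB1 and ZEB2, zinc finger repressors of E-cadherin, differed from each other in their course. ZEB2 rose from 0.135 to 29.5 ± 4.07 TPM in high purity and from 0.108 to 44.5 ± 0.482 TPM in low purity by day 2 (SD, n = 4 wells each). These are log2 changes of 4.78 and 5.33, the largest of the 10 members for that step. Day 0 held 2 to 18 reads in high purity and 3 to 4 in low purity wells. After day 2, ZEB2 was lower from day to day in both classes, to 11.9 and 28.3 TPM on day 16, with no further step called. ZEB2 was lower in every high purity well than in any low purity well on each day from 2 to 16. The day 16 log2 difference of -0.98 missed the fold threshold. With that threshold kept, it was called under 4 other settings. The values were -1.18 without TMM scaling, -1.03 with a pseudocount of 0.1, and -1.01 and -1.00 with edgeR and DESeq2 on recovered reads. The difference was also called without high purity well 1 or 3 or low purity well 2, at -1.04 to -1.00.

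ZEB1 was instead highest late, on day 16 in high and day 13 in low purity. In high purity the means were 1.23, 7.29, 21.4, 26.7, 35.0, 40.4 and 58.4 TPM on days 0, 2, 4, 6, 8, 13 and 16. In low purity they were 0.695, 14.4, 26.5, 31.8, 52.6, 56.4 and 53.5 TPM. ZEB1 rose by 3.12 on the log2 scale in low purity from day 0 to 2 and by 1.88 in high purity, and these steps differed by -1.25 (SE 0.156, limma adjusted p = 5.68e-08). By day 2 no well of either class reached into the range of the other, at 5.85 to 8.72 TPM in high and 13.6 to 15.3 TPM in low purity. The day 2 difference of -0.84 was under the fold threshold. High purity rose again from day 2 to 4 (log2 change 1.34), and by day 16 the classes differed by 0.34.

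TWIST1, a basic helix-loop-helix factor of mesoderm and mesenchyme, had the latest midpoint of the 5 factors in both classes on the log2(TPM + 1) scale. This place in the order depends on the pseudocount of 1, because TWIST1 began at or near 0 TPM. No read was found in any of the 4 high purity wells of day 0, where 3 reads, the upper limit that a count of 0 allows, stand for up to 0.449 TPM. The limit covers counting error only. Low purity wells of day 0 had 0 to 3 reads. On day 2 the high purity wells were at 2.28, 2.66, 2.403 and 1.47 TPM, and their mean was at least 4.91-fold higher than that limit. Low purity wells were at 6.109, 5.905, 6.287 and 7.072 TPM. The classes differed by -1.16 (SE 0.142, limma adjusted p = 5.78e-09).

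On day 4 TWIST1 levels were 11.68 to 15.42 TPM for high and 39.44 to 40.77 TPM for low purity wells, a log2 difference of -1.49 (SE 0.142, limma adjusted p = 5.67e-12). Both classes were highest on day 6, at 23.1 ± 1.84 and 42.4 ± 5.22 TPM (SD, n = 4 wells each). It fell in high purity from day 6 to 8 (log2 change -1.07), a call lost without day 8 well 2 (-0.93). The low purity change over those days was -0.96. From day 6 on, TWIST1 was lower in high purity wells without overlap, with differences of -0.86, -0.96, -0.46 and -0.89 on days 6, 8, 13 and 16, under the fold threshold. The day 8 difference was called without TMM scaling (-1.18), with a pseudocount of 0.1 (-1.03), with edgeR or DESeq2 on recovered reads (-1.01 each) and without high purity well 1 (-1.07). The day 16 difference was called without TMM scaling (-1.07).

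**Figure D3:**
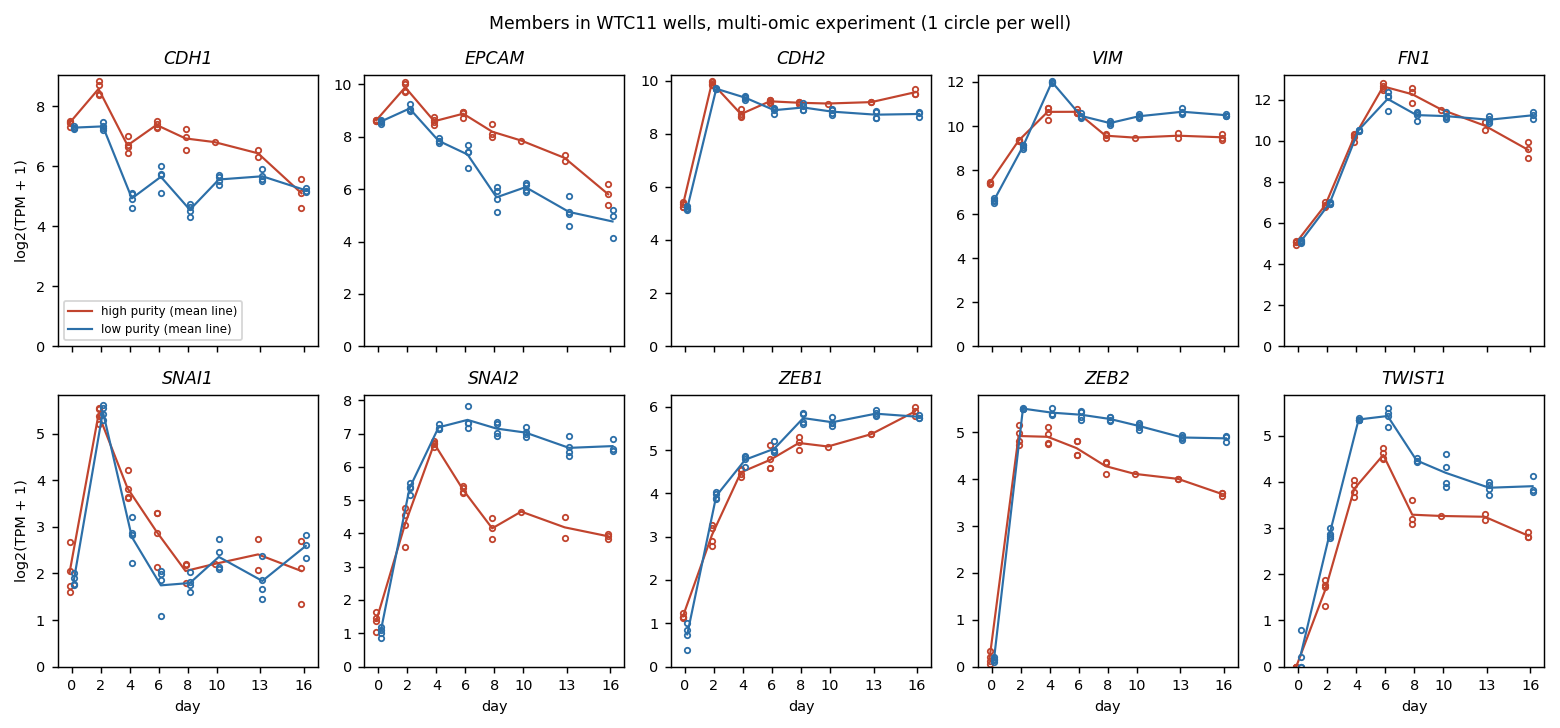
Level of each member in every multi-omic well, as log2(TPM + 1), by day of differentiation: circles are wells, lines join class means, and each panel is a gene. SNAI1 peaks on day 2 in both classes, SNAI2 stays near 100 TPM in low purity to day 16 while high purity ends at 14.1 TPM, and CDH1 and EPCAM lie higher in high purity from day 2 to 13.

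VIM encodes vimentin, the intermediate filament protein of mesenchymal cells. On day 4 the 4 high purity wells were at 1807, 1249, 1588 and 1819 TPM and the 4 low purity wells at 4272, 4087, 3916 and 4131 TPM. Low purity stood above high purity in every pair of wells, by a log2 difference of -1.35 (SE 0.075, limma adjusted p = 1.71e-19). The low purity peak was seen on this sampled day alone. VIM rose from day 2 to 4 by 2.88 in low and 1.19 in high purity and fell by 1.60 from day 4 to 6 in low purity. The differences between the steps were -1.69 and 1.52, with limma adjusted p = 3.08e-17 and 1.14e-15. The day 6 means were 1605 ± 102 TPM for high and 1412 ± 96.6 TPM in low purity (SD, n = 4 wells each). On day 16 low purity was higher again, at 1418 to 1482 TPM against 664.7 to 785.3 TPM, but the difference of -0.78 was under the fold threshold.

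VIM was already at unequal levels on day 0, at 170 ± 4.87 TPM for high and 98.0 ± 6.75 TPM in low purity (SD, n = 4 wells each), without overlap. The log2 difference of 0.73 did not pass the fold threshold. VIM is also made by many cells outside EMT, fibroblasts among them. The 9 fibroblast and stromal genes, whose day 4 sums are given above, summed on day 6 to 640 to 853 TPM in high and 3000 to 4730 TPM in low purity.

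FN1 encodes fibronectin, a matrix protein laid down by migrating mesoderm and early heart tissue. It had the latest midpoint of the members that rose, and the largest change on the log2(TPM + 1) scale in both classes. High purity means were 32.2, 116, 1175 and 6415 TPM on days 0, 2, 4 and 6, and low purity means 33.1, 124, 1464 and 4309 TPM. The rises from day 4 to 6 were 2.37 and 1.46 on the log2 scale. On day 8 the wells were at 6137, 5221 and 3688 TPM in high and 2006, 2725, 2626 and 2428 TPM in low purity, a log2 difference of 1.25 (SE 0.129, limma adjusted p = 5.6e-11).

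The order of the classes in FN1 turned over after day 8. High purity fell by 2.49 on the log2 scale from day 8 to 16, and the steps differed by -2.71 (SE 0.189, limma adjusted p = 3.56e-15). On day 16 the wells were at 562.9, 984 and 761.7 TPM in high and 2706, 2456 and 2116 TPM in low purity. All 3 low purity wells were higher, with a log2 difference of -1.46 (SE 0.138, limma adjusted p = 3.18e-12). The stromal marker sums of that day, given with SNAI2, were also higher in low purity.

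From day 0 to 2, all 10 members were called higher in high purity and 8 of 10 in low purity, CDH1 and EPCAM being the exceptions. Of all genes, 9.66% and 11% were called higher over that step. The share of all genes called in either direction was 16.7%, 13.7%, 7.96%, 5.58% and 11.4% for the 5 steps in high purity and 17.9%, 16.9%, 6.62%, 3.31% and 6.39% in low purity. Over these 5 steps, 25 of 50 member tests were called in high purity and 20 of 50 in low purity, against 11.1% and 10.2% of tests over all genes. For day 0 to 2 the median log2 change of the 10 was 1.88 in high and 2.86 in low purity, against 0.00 and 0.02 over all genes. The difference between the classes in a step was called in 11 of 50 member tests, against 6.6% over all genes (3.22%, 8.94%, 7.51%, 4.14% and 9.17% by step). Those 11 are the ones given above for CDH1, EPCAM, SNAI1, SNAI2, ZEB1, VIM and FN1, together with EPCAM from day 8 to 16 (-1.48).

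To place the members in time, a midpoint was read off the mean log2 course: the interpolated day at which a member had gone 50% of the way from day 0 to its extreme over days 0 to 8. It is a description, with samples 2 days apart, and a member whose extreme is on day 2, the first day sampled, gets 1.0 day whatever its course before. For members near or below 1 TPM on day 0 the midpoint also depends on the pseudocount of 1. In low purity the extreme was on day 2 for CDH2, SNAI1 and ZEB2, so they cannot be ordered. After them came SNAI2 at 1.46, ZEB1 at 1.54, TWIST1 at 1.94, VIM at 2.21 and FN1 at 2.93 days, and the losses of CDH1 at 3.13 and EPCAM at 6.06 days. In high purity the same 3 members again had their extreme on day 2, followed by VIM at 1.63, SNAI2 at 1.78, ZEB1 at 2.22, TWIST1 at 2.5 and FN1 at 3.18 days. The midpoint of 1.0 day for CDH1 and EPCAM in high purity belongs to their rise on day 2, so it is no loss.

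SNAI2, ZEB1, TWIST1 and FN1 thus had the earlier midpoint in low purity and VIM the later one. Each midpoint is relative to the extreme of its own class, so it does not give the speed by itself. VIM rose by more in low purity from day 0 to 2 (2.28 against 1.89) and again from day 2 to 4. Its change at the extreme was 5.16 in low and 3.08 in high purity. FN1 rose by 1.71 in low and 1.79 in high purity from day 0 to 2, and its change at the extreme was 6.67 and 7.36. Leaving out each well in turn moved the SNAI2 midpoint between 1.66 and 1.88 days in high and between 1.42 and 1.48 days in low purity. For TWIST1 these ranges were 2.41 to 2.54 and 1.88 to 1.98 days. The ranges of the classes did not meet for either factor.

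**Figure D4:**
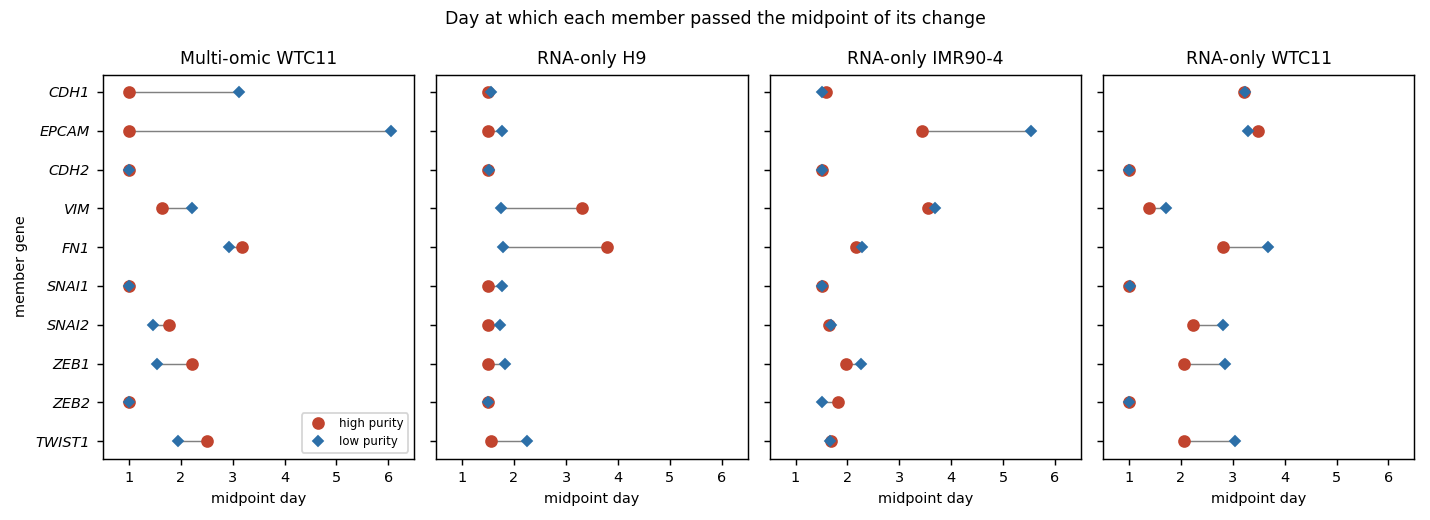
Midpoint day of each member, with 1 panel for the multi-omic experiment and 1 for each RNA-only line: circles are high purity, diamonds low purity, and a grey line joins the classes of a member. In the multi-omic panel SNAI2, ZEB1, TWIST1 and FN1 lie earlier in low purity, and CDH1 and EPCAM have midpoints of 3.13 and 6.06 days in low purity and 1.0 day, from their early rise, in high purity.

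In the RNA-only experiment, edgeR's quasi-likelihood test on counts called 0 of 40 member comparisons between classes, as it called 0 of 23848 genes (0%) at each of the 4 stages. At an unadjusted p under 0.05 there were 9 of 40 for the members. Of all genes, 1.48%, 7.95%, 7.54% and 12.1% were under that p at stages 1 to 4. DESeq2 called 2 of the 40, SNAI1 and SNAI2 at the second stage. The fit held a mean for each line and stage. Its spread is therefore how far the difference between classes varied between the 3 lines.

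SNAI2 ran against the multi-omic direction in these lines. At the second stage (day 2 or 3) it was at 51.69 TPM in H9 high and 12.54 in H9 low purity, 20.25 in IMR90-4 high and 14.22 in IMR90-4 low, and 3.197 in WTC11 high and 0.6631 in WTC11 low. In each of the 3 lines the high purity differentiation was higher; of all genes, 29.9% kept 1 direction in the 3 lines at this stage, and 26.9% and 32% at stages 3 and 4. Within a line the log2(TPM + 1) differences were 1.96 in H9, 0.48 in IMR90-4 and 1.34 in WTC11. The fitted difference was 1.54, with an unadjusted p of 0.00043 and an adjusted p of 0.385 (edgeR), so it failed the correction. High purity was also higher in 3 of 3 lines at stages 3 and 4, with fitted differences of 0.89 and 0.81.

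SNAI1 showed the same direction at the second stage, at 27.6 against 10.8 TPM in H9, 25.85 against 19.01 in IMR90-4 and 21.78 against 6.601 in WTC11, high purity first. The 3 high purity libraries were above the 3 low purity libraries. The fitted difference was 1.14, with an unadjusted p of 0.00178 and an adjusted p of 0.402 (edgeR). The primitive streak and mesoderm genes (9 genes) summed to 1060 to 1290 TPM in the high and 378 to 645 TPM in the low purity libraries of that stage. In the multi-omic wells of day 2 the same sum overlapped between classes, at 2210 to 2490 TPM in high and 2180 to 2390 TPM in low purity. The part of these markers in the SNAI1 and SNAI2 values was not tested.

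WTC11 at passage 69 was the low purity source in both experiments, with different library kits. On day 2, SNAI2 had 34.92 to 44.48 TPM across multi-omic wells and 0.6631 TPM (42 reads) in the RNA-only library. TWIST1 was at 5.905 to 7.072 and 0.8952 TPM, and ZEB1 at 13.63 to 15.33 and 0.7761 TPM. ZEB2 was at 43.99 to 45.13 and 7.013 TPM, SNAI1 at 38.51 to 47.96 and 6.601 TPM, and CDH1 at 147.3 to 175.8 and 86.4 TPM. As a share of its own day 0 level, CDH1 of day 2 was at 103% and 137%, and SNAI1 at 1660% and 387%. Tables normalized separately and made from poly(A) and total RNA are not on 1 scale, so no test was made across them. Whether both came from 1 differentiation is not given in the sources used here.

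The step out of pluripotency was called in RNA-only as well. From day 0 to the second stage, over 6 differentiations, 8 members rose and CDH1 fell, while 25.6% of all genes were called, 14.8% higher and 10.8% lower. ZEB2 rose by 7.89, TWIST1 by 6.78, SNAI2 by 5.36, ZEB1 by 4.49, SNAI1 by 3.14, CDH2 by 3.06, VIM by 2.48 and FN1 by 2.42 on the log2 scale. The largest of these rises start from few reads. On day 0 a library held 1 to 17 reads of ZEB2, 4 to 10 of TWIST1, 10 to 22 of SNAI2 and 6 to 66 of ZEB1. Their sizes and order are therefore uncertain. Of the later steps, CDH2 fell from the second to the third stage (-1.19, lost without IMR90-4 at -1.12 and without WTC11 at -0.98), where 6.86% of genes were called. No member was called from stage 3 to 4, where 3.72% of genes were. The 3 steps together gave 10 calls of 30, against 12.1% over all genes, and the difference between classes in a step was called in 0 of 30, as in 0% of genes (2 of 30 at an unadjusted p under 0.05). FN1 was lost from the first step without IMR90-4 (1.68).

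The fall of CDH1 depended on the line. CDH1 was at 88.57 TPM on day 0 and 0.454 TPM on day 3 in H9 low purity, which is 0.513% of the start. H9 high purity kept 2.05%, IMR90-4 high 13.0% and IMR90-4 low 17.8% on day 3. In both WTC11 differentiations CDH1 was above its start on day 2, at 153% in high and 137% in low purity. The day 4 values of WTC11 were 12.61 TPM for high and 21.38 TPM for low purity. The fitted step of -2.61 (SE 0.915, edgeR adjusted p = 0.0237) was -0.62 and not called without H9, -2.66 and not called without IMR90-4, and -0.96 without the block for differentiation. WTC11 was sampled on day 2 and the other lines on day 3, so day and line cannot be told apart here.

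EPCAM followed the same lines, at 2.55 TPM in H9 low and 12.43 TPM in H9 high purity on day 3, from 86.73 and 72.99 TPM. IMR90-4 gave 56.74 TPM for high and 80.07 TPM for low purity on day 3, and WTC11 was at 166.4 TPM for high and 127.9 TPM for low purity on day 2. The step was -1.17 and not called, but -2.33 and called without WTC11. In WTC11, then, both epithelial genes were above their day 0 level on day 2 in both RNA-only differentiations.

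**Figure D5:**
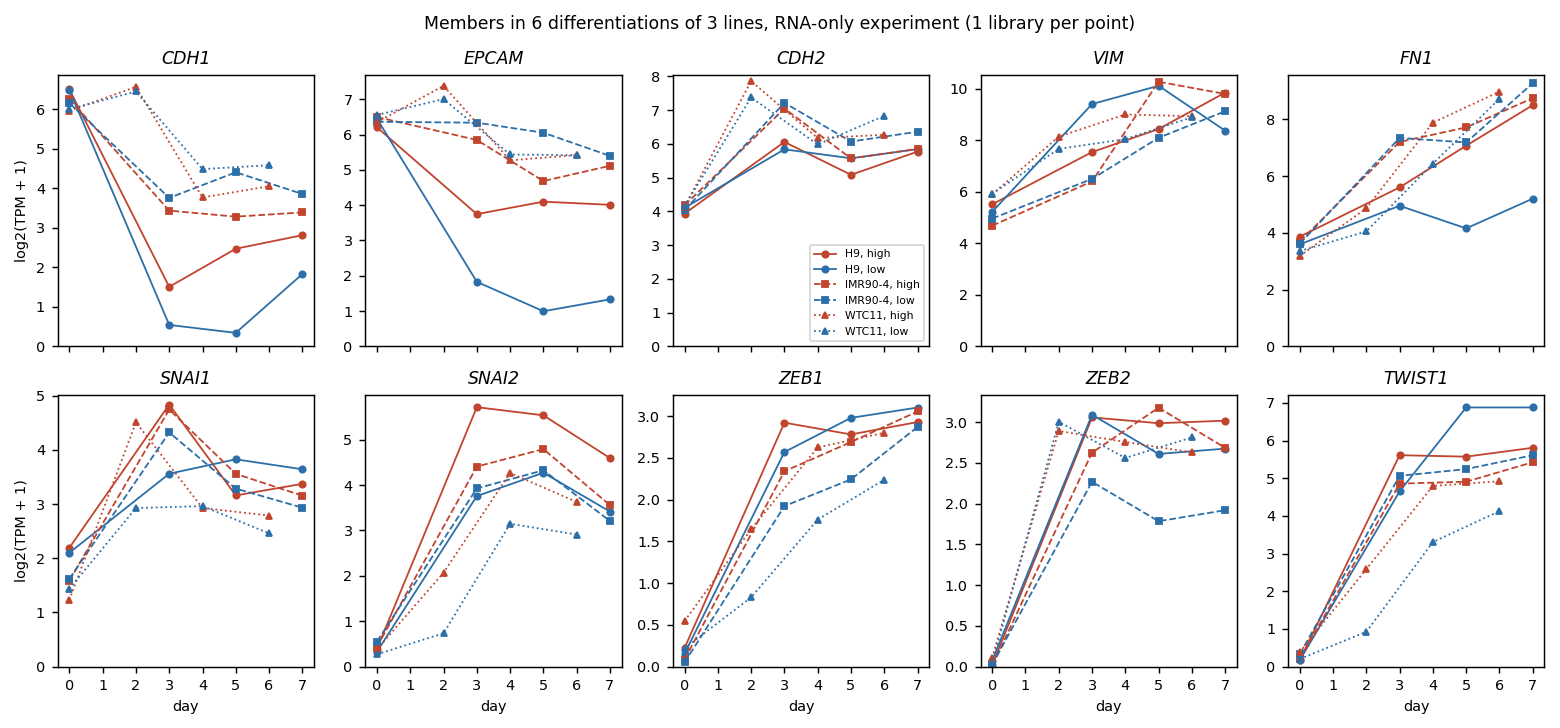
Level of each member in the 24 RNA-only libraries, as log2(TPM + 1), by day: colour gives the purity class, marker and line style the cell line, and each point is 1 library. CDH1 and EPCAM drop lowest in H9 low purity, while WTC11 stands above its start on day 2; SNAI2 is higher in high than in low purity within each line from the second stage on.

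H9 low purity stood apart from the other 5 differentiations. Its CDH2 to CDH1 ratio was 124 on day 3 and 175 on day 5, where H9 high purity was at 35.7 and 7.25 and the other 4 between 1.91 and 13.4. The value of 175 rests on 32 reads of CDH1. TWIST1 reached 116.9 TPM on day 5 against 8.893 to 46.64 TPM in the other 5, and VIM was at 679.5 TPM on day 3 against 83.78 to 282.2 TPM. FN1 was at 16.84 TPM on day 5 and 35.91 TPM on day 7, where the other 5 held 85.97 to 235.3 and 361.8 to 620.2 TPM. The fibroblast and stromal sum was 131, 711 and 1570 TPM on days 3, 5 and 7 in H9 low, and 169, 86.4 and 127 TPM in H9 high purity. Its cardiomyocyte sum was 503, 357 and 360 TPM on these days, against 50.8, 136 and 2410 TPM in H9 high. These are single libraries, and the part of the markers in them was not tested.

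With H9 left out, the difference between classes in CDH1 at the third stage reversed, from 0.13 to -1.10, and was called (edgeR adjusted p = 0.0184, against 0.933 to 1.0 under the other settings). Without the block for line it was -0.81 and not called. In H9 it was higher in high purity (4.537 against 0.2654 TPM), and in the other two lines higher in low purity, at 20.18 against 8.72 TPM in IMR90-4 and 21.38 against 12.61 TPM in WTC11. The multi-omic direction, higher CDH1 in high purity on day 4, was therefore shared by H9 alone of the 3 RNA-only lines.

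The midpoints in RNA-only, for the 30 pairs of member and line, were earlier in high purity in 15, earlier in low purity in 5 and within 0.05 day in 10. H9 had 6 earlier in high and 2 in low purity, IMR90-4 had 4 and 2, and WTC11 had 5 and 1. In the multi-omic experiment SNAI2, ZEB1, TWIST1 and FN1 had the earlier midpoint in low purity. Of these, only ZEB1 was earlier in high purity in every RNA-only line. FN1 in H9 was earlier in low purity, at 1.78 against 3.79 days, and SNAI2 and TWIST1 in IMR90-4 were within 0.05 day. The FN1 change in H9 was only 1.61 in low purity, on the log2 scale at its extreme, against 4.64 in high purity. On days 3, 5 and 7 FN1 was at 30.0, 16.84 and 35.91 TPM in H9 low and 47.62, 133.7 and 361.8 TPM in H9 high purity. A member with its extreme on the first day sampled after day 0 gets 1.5 days in H9 and IMR90-4 and 1.0 day in WTC11, whatever its level there. EPCAM in H9 thus counts as earlier in high purity, at 1.5 against 1.77 days. On day 3 it was at 17.0% of its day 0 level in high and 2.94% in low purity. No test was made of the counts of earlier midpoints.

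Other genes of the epithelial program were read from lists. Of 31 junction and polarity genes, 13 were called higher and 0 lower in high purity on day 2, where 2.24% of all genes were called higher and 3.08% lower. CLDN3, a tight junction claudin (log2 difference 2.32), KRT19, a keratin (1.73), and RAB25, a trafficking GTPase of epithelia (1.62), led. On day 8 it was 17 higher and 3 lower, against 4.66% and 7.5% of all genes. CLDN3 (2.73), CLDN7 (2.48) and AP1M2, a sorting adaptor of epithelial cells (2.39), were highest, and CDH3, P-cadherin (-1.31), KRT18 (-1.27) and PARD6B (-1.12) lower. For days 4, 6 and 13 the counts, higher and then lower, were 5 and 1 (3.62% and 4.22% of all genes), 15 and 1 (3.61% and 5.19%), and 13 and 1 (4.55% and 6.23%). For day 16 they were 4 and 3, against 5.76% and 7.65% of all genes, so the share lower was near that of all genes. On day 16 the lower ones were KRT18 (-1.81), KRT8 (-1.43) and MAL2 (-1.02). The list median was 0.82 on day 2 and 1.22 on day 8, against 0.00 and -0.03 over all genes.

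Not all epithelial genes went down with time. From day 2 to 4 the keratins KRT8 and KRT18 rose in both classes, by 3.18 and 2.23 in high and by 3.49 and 3.23 in low purity. DSP, desmoplakin, rose from day 0 to 2 by 3.83 in high and 3.76 in low purity. PKP2, a desmosomal plakophilin that heart muscle also uses, rose from day 2 to 4 by 1.80 and 3.62. Endoderm is itself an epithelium. The sum of 10 endoderm genes was 1290 to 1700 TPM in high against 392 to 711 TPM in low purity on day 6 and 1130 to 2040 against 287 to 507 TPM on day 8. On day 10 it was 1250 TPM in the 1 high purity well and 2410 to 2960 TPM in low purity. The part of endoderm markers in CDH1, EPCAM and the junction genes was not tested.

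Epithelial regulators are genes that hold the epithelial state. Of 12 tested, 6 were called higher and 0 lower in high purity on day 8, where 4.66% and 7.5% of all genes were, and 7 and 0 on day 13, where 4.55% of all genes were called higher and 6.23% lower. GRHL2, a grainyhead factor that activates CDH1, differed by 2.03, 2.25 and 3.38 on days 6, 8 and 13. Its day 6 mean was 10.5 ± 1.01 TPM for high and 1.89 ± 1.29 TPM for low purity (SD, n = 4 wells each). ESRP1, the splicing regulator of epithelia, was the only one called on day 2 (1.64), at 152 ± 10.4 TPM for high and 50.3 ± 2.76 TPM for low purity (SD, n = 4 wells each). It had fallen in low purity from day 0 to 2 (-1.91), and the steps differed by 1.60. OVOL2 was higher on day 13 (1.82).

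MIR200CHG, the host transcript of the miRNAs printed above, differed by 3.21 on day 8 (limma adjusted p = 4.61e-06). That rests on 13 to 23 reads in the 3 high purity wells and 0 to 1 read in the 4 low purity wells. GRHL3, another grainyhead factor, was the only regulator called lower on day 4 (-1.51), and 3 were called higher. Of all genes, 4.22% were called lower and 3.62% higher on that day. On day 6 the entry of the MIR141 gene was the only one called lower (-1.12), and 5 were called higher, against 5.19% and 3.61% of all genes. The MIR141 entry does not measure the mature miRNA.

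The mesenchymal adhesion and matrix genes went the other way in larger number. Of 24, 2 were called higher and 12 lower in high purity on day 4, where 3.62% and 4.22% of all genes were. On day 8 it was 1 and 14, against 4.66% and 7.5% of all genes. On day 16 it was 1 and 18, against 5.76% and 7.65% of all genes. The share called higher was near that of all genes on days 8 and 16. On day 4 COL3A1, a fibrillar collagen (-4.62), ACTA2, smooth muscle actin (-4.13), and TNC, tenascin C (-2.55), were lowest, and ITGA5, the fibronectin receptor subunit (1.40), and THY1 (1.39) higher. POSTN, periostin, was the lowest on day 8 (-4.70), and S100A4 was higher (1.86). Several of these genes are fibroblast genes, and their sums moved with the classes as given for SNAI2. CDH11, a mesenchymal cadherin, differed on day 2 already (-1.28), as did TAGLN (-1.23), with PDGFRB in the other direction (1.13).

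Among 11 other transcription factors linked to EMT, FOXC1 and GSC rose from day 0 to 2 in both classes, FOXC1 by 7.25 and 7.86 and GSC, goosecoid of the organizer and anterior streak, by 6.77 and 6.80, high purity first. On day 4 FOXC1 (2.04) and FOXC2 (1.55) were among the genes called higher in high purity, and TCF4 (-1.13) was lower. GSC fell from day 2 to 4, with log2 changes of -4.39 in high and -5.40 in low purity. SOX9 was lower in high purity on day 8 (-1.91). On day 16 FOXC1 (-1.59) and PRRX1 (-1.15) were lower.

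In RNA-only, 14.8% of all genes were called higher and 10.8% lower over the first step. Epithelial regulators had 0 called higher and 8 lower of 9 tested, junction genes 3 and 15 of 31, mesenchymal genes 12 and 3 of 24, and the other factors 7 and 1 of 11. The share of junction genes called higher was under that of all genes, and the share of mesenchymal genes called lower was near it. GRHL2 (-2.87), ESRP1 (-2.86) and OVOL2 (-2.67) led the regulators. None of the genes of these lists was called between classes, as for all genes.

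Genes with the most similar course were sought over the 16 class and day means of the multi-omic experiment, by Pearson's r of mean log2 level over 13363 genes. The 16 points share libraries and time, so r is a description. CDH1 was closest to SPINT1, an epithelial protease inhibitor (0.953), and CBLC (0.926), and EPCAM to NONO (0.96) and FOXH1 (0.957). SNAI1 was closest to LOC105370324 (0.964) and GSC (0.963), SNAI2 to BMP4 (0.974) and LOC107984890 (0.961), and TWIST1 to LIFR (0.971) and ZNF83 (0.956). CDH2 was closest to BTG2 (0.969) and TGFB1 (0.962), ZEB1 to CRTC3 (0.984) and FLNC (0.983), and ZEB2 to COLEC12 (0.982) and SOAT1 (0.978). VIM was closest to PKIG (0.955) and FAM20A (0.944), and FN1 to LOC112268430 (0.981) and ADAMTS9 (0.973).

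Among the members themselves, over the same 16 means, CDH1 and EPCAM had r of 0.85, TWIST1 and VIM 0.92, SNAI2 and TWIST1 0.91, and CDH2 and ZEB2 0.9. SNAI1 and SNAI2 had r of 0.00, and CDH1 and CDH2 -0.2.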

How the data were processed

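Levels were taken from the deposited TPM tables and, for RNA-only, from the deposited count table; both units were made by the authors, and the submitters' processing notes name STAR 2.5.3a, featureCounts 2.0.3 and hg38. In the RNA-only count table, 36 broken lines of 6 genes were left out. Low TPM values were whole multiples of 1 read in 100% of nonzero values with a solved gene length (37194 genes, tolerance 0.02), which gave each library's reads. In the multi-omic count table, 0 of 56 columns matched the TPM column sharing their name in reads, 50 matched another and 6 matched none, while all 24 RNA-only columns matched. The planned count test was therefore replaced by a test of TPM in the multi-omic experiment.

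The multi-omic fit used limma 3.58.1 (trend) in R 4.3.3 on log2(TMM-scaled TPM + 1), with a pseudocount of 1, genes at 1 TPM or more in at least 3 libraries, 16 class and day means and 40 residual degrees of freedom. Steps and differences of steps are contrasts of that fit. RNA-only counts were fitted with edgeR 4.0.16 (quasi-likelihood, TMM, filterByExpr), with line by stage means or differentiation as a block. Its standard errors were taken as the log2 change over the square root of F. DESeq2 1.42.0 was an alternative. The fits were tested on simulated data. Named genes are all 10 members, at most 3 genes a list and direction with the largest called change, and the 2 most correlated genes a member. The members and lists were chosen with earlier results of these data known. Day 10 has 1 high purity well and was given as values. Well numbers only name wells: of 60 same-numbered pairs, 9 had a correlation of deviations over 0.1 (range -0.238 to 0.344). In RNA-only the cell line pairs the classes. Alternatives were other scaling, pseudocount, filter and tools, a replicate block or none, and leaving out each library or line.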

Additional observations from a re-analysis of the deposited data

Results flagged for a closer look

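For 7 members the change between days differed between the classes of the multi-omic experiment, by the test of the difference itself (limma, high purity step minus low purity step, log2). From day 0 to 2 this was 1.22 for CDH1, -1.32 for SNAI2 and -1.25 for ZEB1. From day 2 to 4 it was 1.04 for SNAI1 and -1.69 for VIM. From day 4 to 6 it was -1.64 for SNAI2 and 1.52 for VIM. EPCAM differed by 1.19 from day 6 to 8. Over days 8 to 16 the values were -2.48 for CDH1, -1.48 for EPCAM and -2.71 for FN1. Each class is 1 differentiation.

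One well stood apart from its group in a member: ZEB2 in low purity day 4 well 2 was at 44.8 TPM, while the other 3 wells were at 40.6 to 41.0 TPM, a gap of 0.899 of the range. Of 105 groups of 4 wells tested, 1 was flagged. Chance flags about 1 in 20 groups of this kind.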

How the results depend on the processing

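In the multi-omic experiment 77 member results were called; 74 of them stayed called under every alternative fitted to the TPM values or the reads recovered from them, other than leaving out a library, and 67 with those included. In RNA-only these counts were 10, 9 and 7. With the adjusted p alone as the rule, 53 differences between classes, 33 low purity steps and 27 differences of steps were called in place of 21, 20 and 11. With edgeR on the deposited multi-omic counts under their own column names, which do not hold the same reads, the counts were 10 differences between classes, 5 high purity steps, 2 low purity steps and 0 differences of steps. The share of all genes called was not computed for that rule or for the deposited counts. These counts therefore cannot be set against all genes. DESeq2 called 2 of the RNA-only differences between classes, in place of 0. Leaving out each library or line gave 19 to 23 differences between classes, 24 to 27 high purity steps, 19 to 21 low purity steps and 10 to 12 differences of steps, and in RNA-only 0 to 1, 7 to 12 steps and 0 differences of steps. The reversal of CDH1 at the third stage without replicate 1, the H9 line, gave -1.10, the fit with no replicate block gave -0.81, and without replicate 2 or 3 the value was positive, up to 1.29. A replicate block on the well numbers gave 21 differences between classes, and the wells are not paired. Removing TMM scaling moved the median difference of all genes by -0.154, -0.131 and -0.118 for days 8, 13 and 16. The cause of these changes was not tested. Depth limits SNAI1, TWIST1 and MIR200CHG most, which had few reads.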
